A study of Mus musculus with 8 samples.

Results

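The drug-metabolizing cytochrome P450 module of mouse liver comprised the genes whose RefSeq symbols begin with Cyp1a, Cyp2a, Cyp2b, Cyp2c, Cyp2d, Cyp2e, Cyp2f, Cyp2g, Cyp2j, Cyp2r, Cyp2s, Cyp2u or Cyp3a, together with Por, Ahr, Nr1i2 and Nr1i3. RefSeq listed 88 such genes, 61 had a probe on the array, and 60 were measured well enough to test, out of 42982 features tested in all. The members were chosen by name and not by their values. Cyp2ab1 on chromosome 16 met the prefix and was kept, and 3 of the 60 were pseudogenes (Cyp2c53-ps, Cyp2d13 and Cyp2d37-ps). The one member not tested was Cyp2b13, which was well above background on 1 NB array and 0 NN arrays.

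Liver RNA came from male recombinant congenic mice on the NZO (New Zealand Obese) background, with C57BL/6J given as the crossing partner. The NB group (strain Ltg/NZO.5.3N/B, 4 arrays, samples 2, 3, 5 and 8) and the NN group (strain Ltg/NZO.5.3N/N, 4 arrays, samples 1, 4, 6 and 7) differ, per the series title, in a segment of 5.3 Mbp on chromosome 18. All mice, NB and NN alike, received a diet with 45% fat, were sampled at 5 weeks, and gave RNA with an integrity number above 8. No member with a probe lies on chromosome 18: the tested members sit on chromosomes 1, 3, 4, 5, 7, 9, 12, 15, 16 and 19, with 14 on chromosome 19, 13 on chromosome 7 and 10 on chromosome 15. Whether every array comes from its own animal is not stated in the labels, so p-values cover only the variation among these 8 samples, which may be technical.

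Cytochrome P450 enzymes are haem proteins of the endoplasmic reticulum that insert oxygen into drugs, pollutants, steroids and fatty acids. Their electrons come from NADPH through P450 oxidoreductase, the product of Por. In hepatocytes some genes of this module are switched on by foreign chemicals through the receptors AHR (Ahr), PXR (Nr1i2) and CAR (Nr1i3). In mice several members also differ between the sexes under the control of growth hormone.

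Levels are log2 processed signals relative to the 75th percentile of the same array, so 0 is the brightness of the probe at that percentile and 1 unit is a doubling. Each gene is represented by its brightest probe, and levels of different probes are not comparable. On the 8 arrays the 75th percentile lay between 445.0 and 584.4 intensity units and 74.4% to 79.6% of probes were well above background, with 0 saturated spots. All 60 members were well above background on every array. Markers of hepatocytes were likewise bright: the 10 markers summed to between 1130 and 1197 times the 75th percentile on NB arrays and between 1159 and 1210 times on NN arrays.

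Because P450 paralogues are alike in sequence, the probes were compared with each other first. The 70 member probes are 45 to 57 bases long, and 6 pairs of probes for different genes overlap by at least 25 bases with at most 15% of bases mismatched. The 3 pairs with the fewest mismatches are shown, since the sequence of each lies close to the other gene's probe. Capitals mark the overlapping bases, and positions count from the 5′ end of the first probe of a pair.
Cyp2b10: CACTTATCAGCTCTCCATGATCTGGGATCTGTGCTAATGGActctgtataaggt
Cyp2b9: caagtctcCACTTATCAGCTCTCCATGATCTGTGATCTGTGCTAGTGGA
Cyp3a25, dimmer probe: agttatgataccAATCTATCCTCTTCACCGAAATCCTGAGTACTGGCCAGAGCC
Cyp3a59, dimmer probe: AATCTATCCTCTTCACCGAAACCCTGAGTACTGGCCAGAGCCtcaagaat
Cyp2d11: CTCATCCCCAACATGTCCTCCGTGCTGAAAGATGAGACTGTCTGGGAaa
Cyp2d34: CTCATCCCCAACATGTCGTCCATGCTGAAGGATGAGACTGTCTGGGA

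The Cyp2b10 and Cyp2b9 probes, both on chromosome 7, overlap by 41 bases with the substitutions G25T and A37G. The dimmer Cyp3a25 and Cyp3a59 probes, on chromosome 5, overlap by 42 bases with T34C. The Cyp2d11 and Cyp2d34 probes, on chromosome 15, overlap by 47 bases with C18G, G22A and A30G. How much of the signal of one gene of a pair comes from the other was not tested. Probes were compared only with probes. Signal from transcripts of paralogues without an overlapping probe was therefore not tested for any member. No member probe shared a run of 20 or more identical bases with a probe outside the module.

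**Figure D1:**
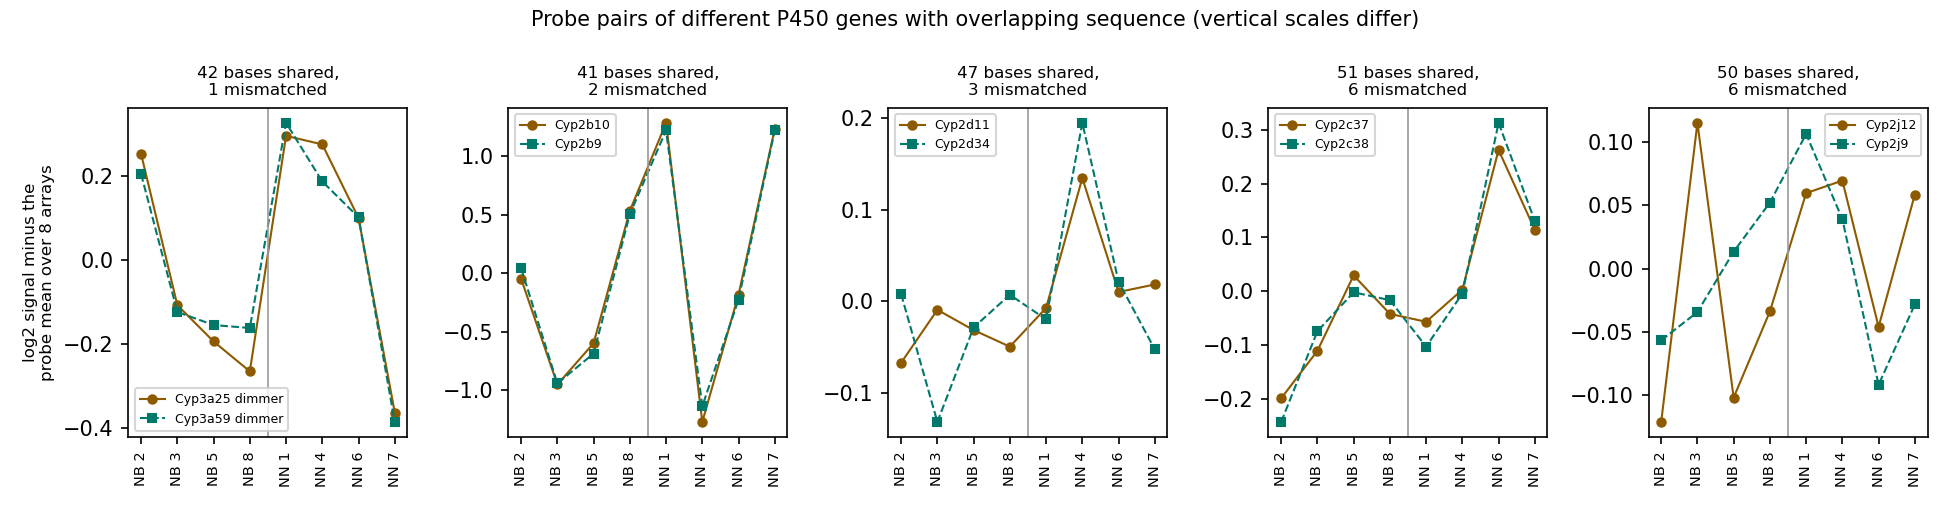
Log2 signal of each array minus the probe's own mean over 8 arrays, for 5 pairs of probes of different P450 genes with overlapping sequence. NB arrays stand left of the grey line and NN arrays right of it, and vertical scales differ. The lines of Cyp2b10 and Cyp2b9 stay within 0.135 of each other over ranges above 2, whereas those of Cyp2j12 and Cyp2j9 part by up to 0.149 on a far smaller scale.

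No P450 gene, nor Por or any of the 3 receptors, passed the test between NB and NN livers. In limma's moderated test over all features with Benjamini-Hochberg adjustment, 0 of 60 members passed the threshold of 0.05 and the smallest adjusted p was 1.00. Over the whole array 3 of 42982 features passed (0.00698%). At an unadjusted p under 0.05 there were 2 members (3.33%), Cyp3a16 and Cyp3a44, both lower in NB, against 1.69% of all features, 0.956% lower and 0.733% higher in NB. Log2 differences (NB minus NN) were below 0 for 46 of 60 members (76.7%), against 54.2% of all features. Their median was -0.08, against -0.01 over all features, and they ran from -0.54 for Cyp2b9 to 0.37 for Nr1i3. The members share regulators and sequence and are no independent replicates of one another. The median was -0.05 without NN 4, and also -0.05 both with quantile normalization and in the authors' deposited table. Of the 10 hepatocyte markers, 2 were above 0 and 8 below, with a median of -0.05, and 0 passed the test.

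Taken 1 gene at a time, the intervals were narrow for most members. They cover only the variation among these 8 samples, which may be technical. For 44 of 60 the 95% confidence interval of the fold difference lay within 1.5-fold in either direction, and for 45 the difference was smaller than the pooled SD between arrays of one genotype. That SD had a median of 0.16 log2 units over members and ran from 0.05 to 0.98, with 30 members below 0.15 and 15 above 0.3. In these bulk livers, fewer cells of a type and less RNA per cell cannot be told apart.

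**Figure D2:**
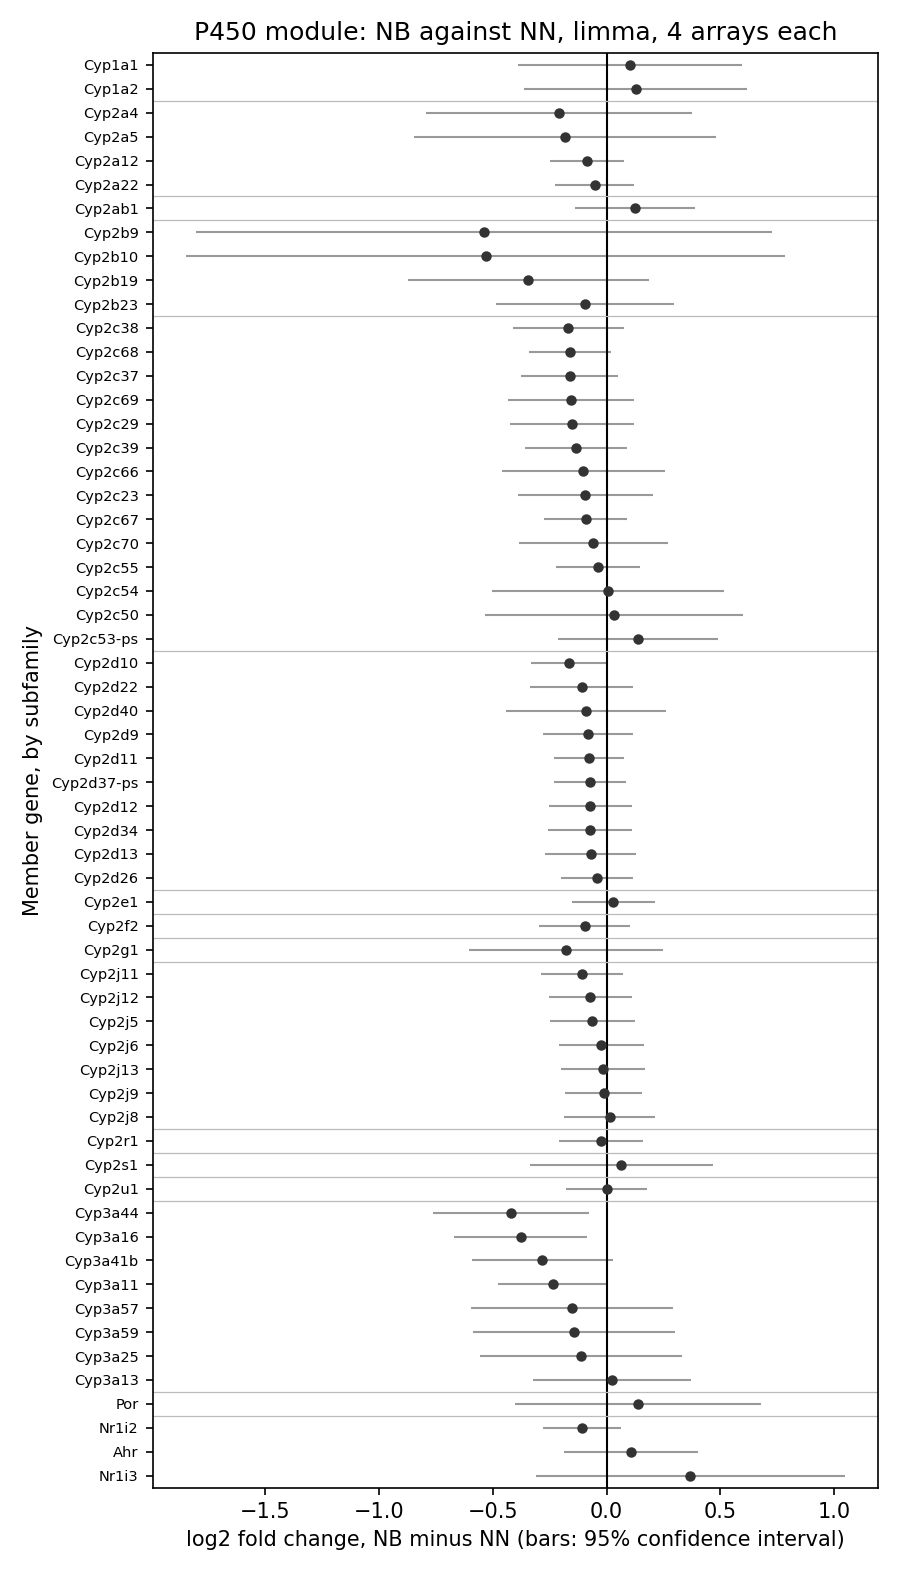
Log2 fold change, NB minus NN, of the 60 members grouped by subfamily, with 95% confidence intervals from limma (4 arrays in each genotype). Most points lie slightly left of 0, Cyp3a44 and Cyp3a16 have intervals below 0 before adjustment, and Cyp2b9 and Cyp2b10 have the widest intervals.

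Among the regulators, Nr1i3, which encodes the constitutive androstane receptor CAR, had the highest difference of the module. Its levels were 0.36, 1.23, 1.43 and 0.24 on the NB arrays, against 0.74, 0.77, 0.23 and 0.05 on the NN arrays. NB 3 and NB 5 stood above all NN arrays while NB 2 and NB 8 lay among them, and the difference of 0.37 (SE 0.298, adjusted p = 1.00 by limma) was smaller than the pooled SD of 0.50. It was 0.16 without NB 5, 0.23 without NB 3, 0.24 without NN 7, 0.56 without NB 8, and 0.57 with array weights. Nr1i2, the xenobiotic sensor PXR, was at 2.49, 2.46, 2.47 and 2.57 on NB arrays and 2.66, 2.69, 2.59 and 2.48 on NN arrays. Here 3 NN arrays exceeded every NB array and NN 7 did not, with a difference of -0.11 (SE 0.0753). Ahr, the dioxin receptor, read 2.06, 1.63, 1.83 and 2.01 in NB livers, against 1.99, 1.53, 1.79 and 1.79 in NN livers. Its groups overlapped, with NB 2 and NB 8 above every NN array and NN 4 below every NB array (difference 0.11, SE 0.129).

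Por, the electron donor of all microsomal P450 enzymes, varied more between arrays than between genotypes. It measured 2.68, 2.39, 3.20 and 3.44 on NB arrays and 2.70, 2.70, 3.19 and 2.56 on NN arrays. Samples 5, 6 and 8 were the high ones, the difference was 0.14 (SE 0.238), and it turned to -0.03 without NB 8. Of 20 genes for other electron carriers and haem metabolism, 9 had differences above 0 and 11 below, with a median of -0.03, and 0 passed the test. The largest difference among them was 0.42 for Alas1, the rate-limiting enzyme of haem synthesis (SE 0.695), which like Por was lowest on NB 3 and was picked after its values were seen. Among 26 partners of the receptors, such as Arnt and Rxra, 9 were above 0 and 17 below, the median was -0.04, and 0 passed.

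The Cyp1a enzymes oxidise planar aromatic compounds and are the classical products of AHR activity. Cyp1a2, which metabolises caffeine, read 3.44, 3.64, 3.22 and 3.04 on NB arrays and 2.82, 3.81, 3.05 and 3.16 on NN arrays. The NN group held both the highest and the lowest array, and the difference was 0.13 (SE 0.216). Cyp1a1 was at 0.09, 0.17, -0.34 and -0.42 in NB livers, against -0.48, 0.37, -0.40 and -0.40 in NN livers, a difference of 0.10 (SE 0.216). NN 4 was highest and NN 1 lowest for both genes, as the map of array deviations shows. Of 6 other AHR targets tested, 2 were above 0 and 4 below (median -0.01), and 0 passed. The promoters of both Cyp1a genes are printed since these move together over arrays, with GCGTG, the core bound by AHR and ARNT, searched on both strands and set in capitals.
Cyp1a1, chr9:57697363-57697662, + strand: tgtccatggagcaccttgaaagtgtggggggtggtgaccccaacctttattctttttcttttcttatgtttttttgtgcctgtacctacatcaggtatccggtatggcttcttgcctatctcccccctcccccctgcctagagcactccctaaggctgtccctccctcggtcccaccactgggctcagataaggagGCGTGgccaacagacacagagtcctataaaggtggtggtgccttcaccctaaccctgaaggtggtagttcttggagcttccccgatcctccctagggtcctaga
Cyp1a2, chr9:57683606-57683905, - strand: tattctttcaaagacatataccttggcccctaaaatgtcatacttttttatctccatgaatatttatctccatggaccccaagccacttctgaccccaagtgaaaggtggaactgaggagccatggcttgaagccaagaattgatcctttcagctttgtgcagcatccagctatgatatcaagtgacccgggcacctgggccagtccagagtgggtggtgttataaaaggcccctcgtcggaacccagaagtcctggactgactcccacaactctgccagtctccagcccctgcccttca

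Both windows come from RefSeq (GRCm38.p6), from 250 bases before the start to 50 after it. GCGTG occurred 1 time in the Cyp1a1 window, at position -54, and 0 times in the Cyp1a2 window. RefSeq promoters were at hand for 50 members, 53 in number. GCGTG was present in 18.9% of them, against 32.4% of all 32851 promoters. AGGTCA, a hexamer bound by nuclear receptors, was in 34.0% of member promoters, against 16.3% of all. AGTTCA, the related hexamer of PXR and CAR sites, was in 11.3%, against 14.0%. TATAAA, the TATA box, was in 47.2%, against 13.6%. Both strands were searched for each, and the 4 words do not contain one another. A match is a description of these letters and no binding site. Sequence more than 250 bases before the start was not searched, so a window without a match does not mean a gene without sites. The compared promoters were not matched for base content. Nor are the 53 windows independent, since Cyp3a25 and Cyp2j13 each have 2 windows of nearly the same sequence. Paralogues are also alike, and each window of Cyp3a25, Cyp3a57 and Cyp3a59 holds AGGTCA 2 times. The shares thus count some sequence more than 1 time.

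**Figure D3:**
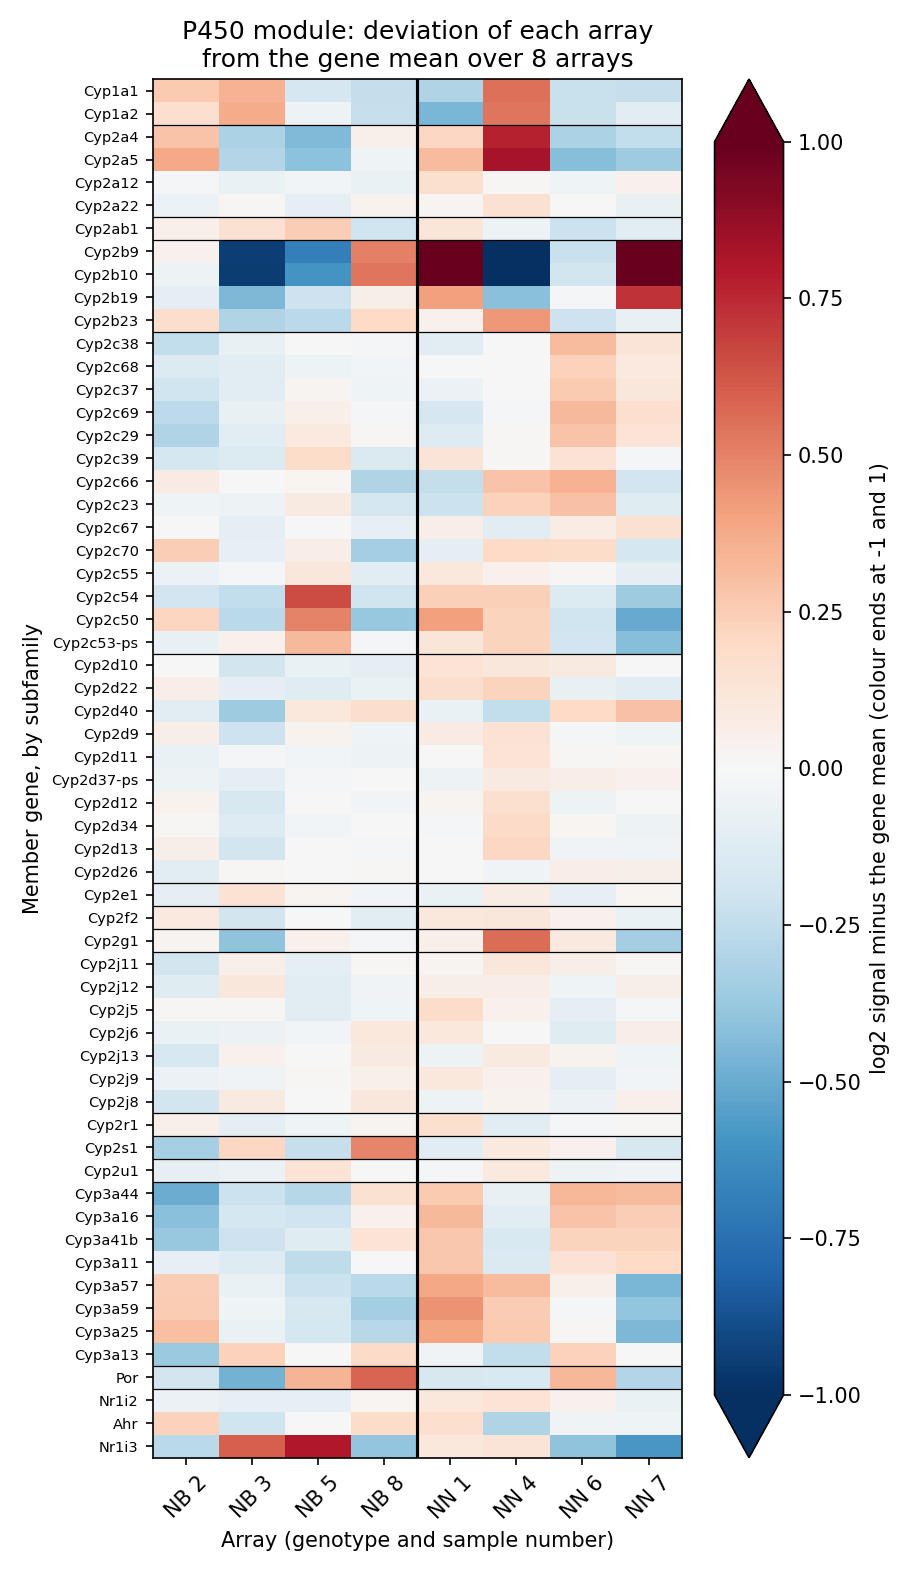
Deviation of each array's log2 signal from the gene's mean over 8 arrays, for the 60 members (rows, by subfamily) and the 8 arrays (columns, 4 NB left of the line and 4 NN right of it). Colour ends at -1 and 1. Cyp2b9 and Cyp2b10 deviate most, and rows of one subfamily often carry the same pattern across single arrays without separating the genotypes.

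The Cyp2b genes, which oxidise barbiturates and steroids and include Cyp2b10, the standard target of CAR, had the lowest median difference of the subfamilies with several members, -0.44, with 4 of 4 below 0. Cyp2b10 and Cyp2b9 were also the most variable members, with pooled SDs of 0.98 and 0.94. Those of Cyp2b19 and Cyp2b23 were 0.38 and 0.27, within the span of the other subfamilies. Cyp2b9, a form more abundant in female liver, was at 0.35, -0.63, -0.38 and 0.81 on NB arrays and 1.53, -0.83, 0.08 and 1.53 on NN arrays. Cyp2b10 was at -0.37, -1.27, -0.92 and 0.21 on NB arrays and 0.96, -1.59, -0.51 and 0.91 on NN arrays. For both genes NN 1 and NN 7 were highest and NN 4 lowest, so the range within NN alone spanned that of all arrays, 5.12-fold for Cyp2b9 and 5.86-fold for Cyp2b10. The differences were -0.54 (SE 0.557) and -0.53 (SE 0.579), both smaller than the pooled SD within genotypes. The Cyp2b9 difference was -1.01 without NN 4, -0.32 without NB 3, and -0.22 without NN 1 or without NN 7. The slide held its arrays in 2 rows, and Cyp2b9 was 0.95 higher in NB within the first row (NB 2 and NB 8 with NN 4 and NN 6) and had a difference of -2.03 in the second (NB 3 and NB 5 with NN 1 and NN 7). Each of the slide's 4 columns held 1 array of either genotype, and the Cyp2b9 difference within them was -1.18, 0.19, -0.46 and -0.72. With the column as a block in limma, the difference stayed at -0.54 and its SE was 0.219 (unadjusted p = 0.0511, adjusted p = 1.00). These 2 genes carry the overlapping probes printed above and followed each other to within 0.135 log2 units.

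Cyp2b19, known from mouse skin, had levels of -2.38, -2.73, -2.49 and -2.23 in NB livers, against -1.88, -2.71, -2.31 and -1.57 in NN livers. It too was high on NN 1 and NN 7 and low on NB 3 and NN 4 (difference -0.34, SE 0.233). The value was -0.54 without NN 4 and -0.16 without NN 7, and with the slide column as a block its SE was 0.125 (unadjusted p = 0.0352 and adjusted p = 1.00 by limma). Cyp2b23 followed another course, highest on NN 4 at -1.66, and differed by -0.10 (SE 0.172). Arrays low for Cyp2b9 were also low for genes more abundant in female liver. Over 11 such genes outside the module the median deviation was -0.14 on NB 3, -0.23 on NB 5 and -0.18 on NN 4, and above 0 on the other arrays. This likeness carries no test. The female forms Cyp3a16, Cyp3a44 and Cyp3a41b, described below, were lowest on NB 2 (4.62, 4.14 and 5.72), where that median was 0.05. Of the 11 genes outside the module 3 were above 0 and 8 below in NB (median -0.10), and 0 passed the test. Of 12 genes more abundant in male liver, 5 were above 0 and 7 below (median -0.03), and 0 passed. Their part in the Cyp2b values was not tested. Of 16 further targets of CAR and PXR, 4 were above 0 and 12 below, with a median of -0.08, and 0 passed. The one with the smallest p, Gstm2, a glutathione transferase, differed by -0.30 (SE 0.129, adjusted p = 1.00 by limma).

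The Cyp3a genes on chromosome 5 include the main drug-oxidising enzymes under PXR, and 7 of 8 were below 0 with a median difference of -0.19. Cyp3a16, a form of young and female mouse liver, had the smallest p of the module. It was at 4.62, 4.86, 4.84 and 5.07 on NB arrays and 5.36, 4.93, 5.32 and 5.28 on NN arrays. The NN arrays 1, 6 and 7 exceeded every NB array, while NN 4 lay below NB 8. The difference of -0.38 (SE 0.129) corresponds to a fold of 0.770 NB over NN, with a 95% interval of 0.628 to 0.943 (unadjusted p = 0.0173 and adjusted p = 1.00 by limma). The second Cyp3a16 probe gave -0.28, and leaving out single arrays moved the value of the brighter probe between -0.48 and -0.30.

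Cyp3a44, a form prevalent in female liver, was at 4.14, 4.43, 4.36 and 4.79 on NB arrays and 4.90, 4.57, 4.97 and 4.96 on NN arrays. Again only NN 4 lay below the highest NB array, and the difference was -0.42 (SE 0.1502, unadjusted p = 0.0215 and adjusted p = 1.00 by limma). Cyp3a41b, likewise prevalent in females, was at 5.72, 5.89, 5.98 and 6.24 in NB livers, against 6.37, 5.94, 6.32 and 6.32 in NN livers. Its difference was -0.28 (SE 0.136), with NN 4 well below the other NN arrays. Cyp3a11, the chief drug-oxidising form of the adult mouse, read 4.87, 4.83, 4.70 and 4.95 on NB arrays and 5.23, 4.81, 5.10 and 5.16 on NN arrays. The difference was -0.24 (SE 0.107). Within the slide's first row Cyp3a16 differed by -0.28 and Cyp3a44 by -0.30, and within the second by -0.47 and -0.54. Within the 4 slide columns the differences were -0.74, -0.07, -0.49 and -0.21 for Cyp3a16, -0.76, -0.14, -0.61 and -0.16 for Cyp3a44, and -0.65, -0.05, -0.34 and -0.09 for Cyp3a41b. These 3 genes moved together, with deviations of the same sign on 8 of 8 arrays, and amount to 1 pattern. Cyp3a16 and Cyp3a44 were followed up for a small p on these same arrays, so the columns are no separate support. The share of all features with the same sign in each column was not counted. All 3 genes were lower in NB in each column. Cyp3a11 was not, with differences of -0.35, 0.02, -0.40 and -0.21 within the columns. Its differences within the rows were -0.04 and -0.43. With the column as a block, the adjusted p of each was still 1.00 by limma.

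A second pattern held for Cyp3a25, Cyp3a57 and Cyp3a59, in which NN 1 was highest and NN 7 lowest. Cyp3a25 was at 4.80, 4.44, 4.33 and 4.23 on NB arrays and 4.90, 4.77, 4.52 and 4.06 on NN arrays, a difference of -0.11 (SE 0.195). The deviations of Cyp3a25 and Cyp3a57 stayed within 0.0605 of each other, and their signs matched on 8 of 8 arrays. Those of Cyp3a25 and Cyp3a59 stayed within 0.0661. These pairs were picked after their values were seen and carry no test. Cyp3a13, the only Cyp3a gene above 0, differed by 0.02 (SE 0.153).

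**Figure D4:**
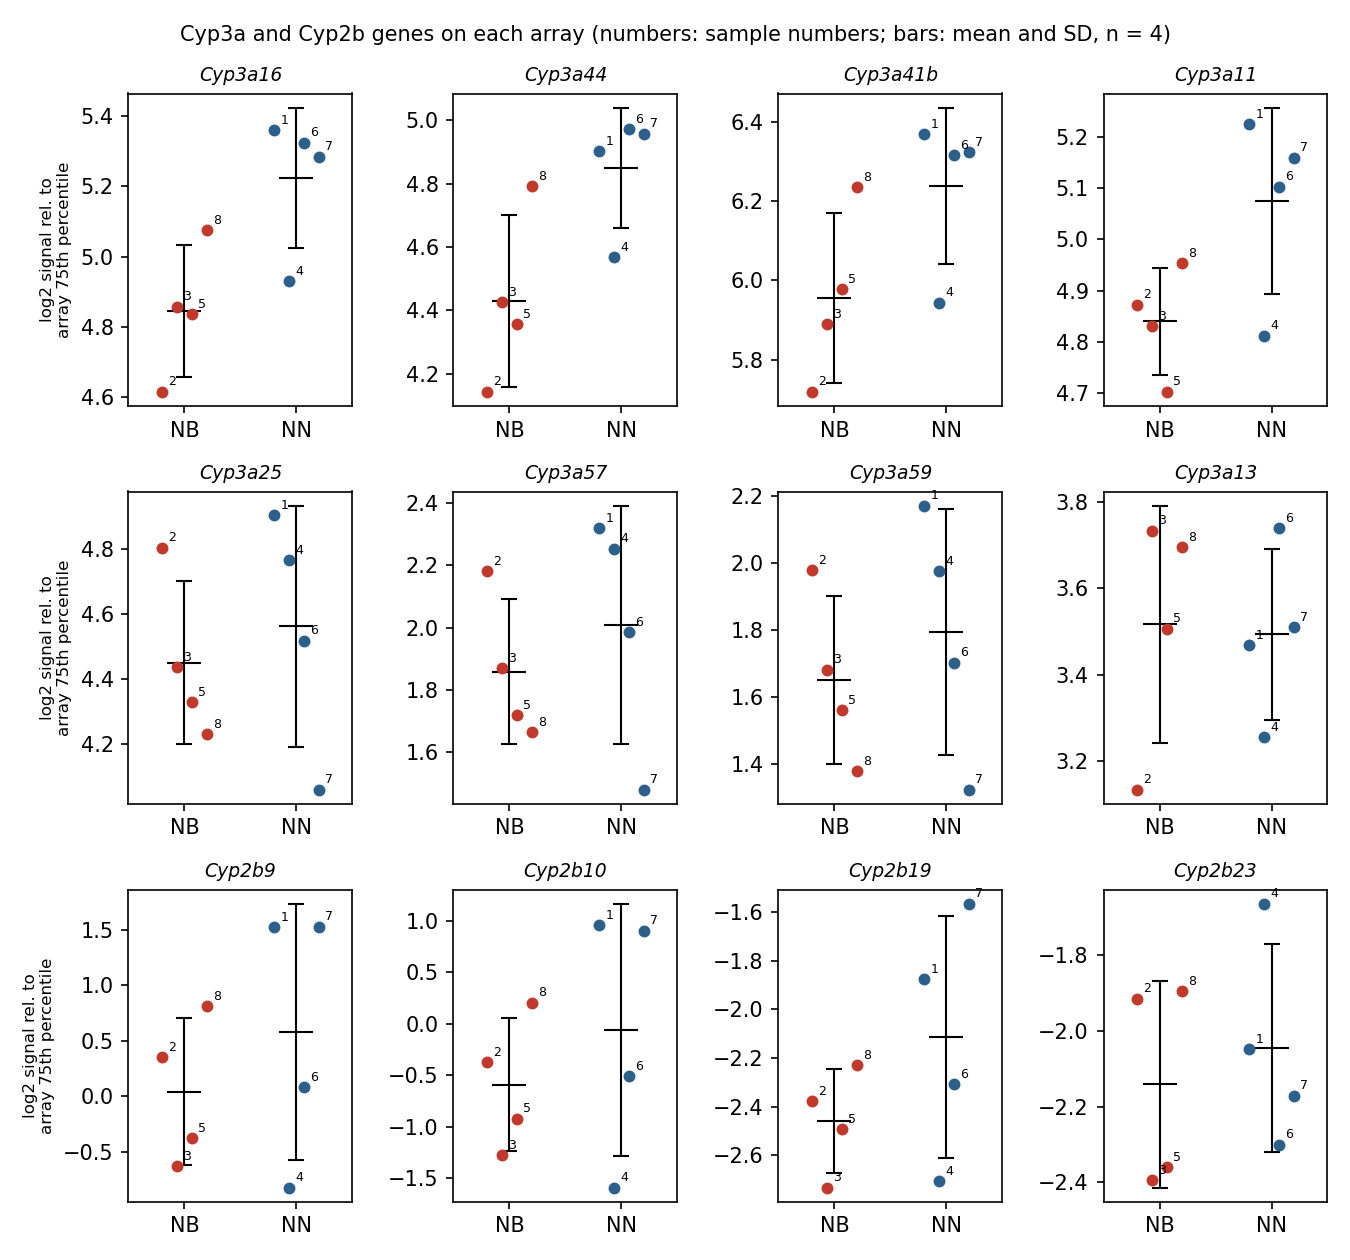
Log2 signal relative to the array's 75th percentile for the 8 Cyp3a and 4 Cyp2b genes tested, NB left and NN right in each panel, with the sample number beside each point and bars for mean and SD (n = 4 arrays). Vertical scales differ. NN 4 lies among the NB arrays for Cyp3a16, Cyp3a44, Cyp3a41b and Cyp3a11, and the NN points of Cyp2b9 spread from -0.83 to 1.53.

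The Cyp2c genes, a cluster on chromosome 19 that oxidises drugs, retinoids and arachidonic acid, had 11 of 14 members below 0 and a median of -0.10. Cyp2c68 was one of 2 members whose NB and NN arrays did not overlap. It was at 6.63, 6.65, 6.71 and 6.73 on NB arrays and 6.76, 6.76, 6.99 and 6.85 on NN arrays. Every NB array lay below every NN array, the gap was narrow, and the difference of -0.16 (SE 0.0794, adjusted p = 1.00 by limma) did not pass the test. Over the whole array 1.16% of features did not overlap, and 0.731% did so with NB lower, against 2 of 60 members (3.33%), both lower in NB. No member was without overlap and higher in NB, as 0.426% of all features were. Its probe, printed to show its identity, is on chromosome 19.
Cyp2c68: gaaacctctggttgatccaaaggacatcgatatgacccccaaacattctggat

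Cyp2c67 was at 7.41, 7.31, 7.40 and 7.32 on NB arrays and 7.47, 7.29, 7.48 and 7.56 on NN arrays. The groups overlapped through NN 4 and the difference was -0.09 (SE 0.0802). Cyp2c29, Cyp2c37, Cyp2c38 and Cyp2c69 shared a course over arrays, with NB 2 lowest and NN 6 highest. Their differences ran from -0.17 for Cyp2c38 to -0.15 for Cyp2c29. Cyp2c37 and Cyp2c38 are another pair with overlapping probes, 51 bases with 6 mismatches, whereas the deviations of Cyp2c29 and Cyp2c69 matched within 0.0473 without a listed overlap. Cyp2c70, which makes the muricholic bile acids of mice, differed by -0.06 (SE 0.143). Cyp2c50 (0.03, SE 0.249) and Cyp2c54 (0.01, SE 0.225) were both highest on NB 5, at 4.26 and 3.57.

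The Cyp2d genes on chromosome 15, which hydroxylate steroids and many basic drugs, were 10 of 10 below 0, by small amounts: the median was -0.08 and the range -0.17 to -0.04. Cyp2d11, the other member without overlap, was at 6.31, 6.37, 6.34 and 6.33 on NB arrays and 6.37, 6.51, 6.39 and 6.39 on NN arrays. NB 3 and NN 1 were nearly level, and the difference was -0.08 (SE 0.0681). Its probe overlaps that of Cyp2d34, whose difference was -0.07 (SE 0.0815) and whose groups overlapped. Cyp2d10 had the largest difference of the subfamily, -0.17 (SE 0.0739), with levels of 7.20, 7.01, 7.13 and 7.10 in NB livers, against 7.33, 7.31, 7.28 and 7.19 in NN livers. Only NB 2 reached above the lowest NN array. Cyp2d9, a testosterone hydroxylase more abundant in male liver, was at 7.79, 7.53, 7.77 and 7.70 on NB arrays and 7.82, 7.88, 7.72 and 7.70 on NN arrays. NB 3 was low and the other arrays overlapped (difference -0.08, SE 0.0873). NB 3 also had the lowest value of Cyp2d12, Cyp2d13 and Cyp2d34, and NN 4 the highest.

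The Cyp2a genes on chromosome 7 had 4 of 4 differences below 0, with a median of -0.13. Cyp2a12, a steroid hydroxylase, was steady at 6.08, 6.03, 6.07 and 6.03 on NB arrays and 6.26, 6.11, 6.05 and 6.14 on NN arrays. NN 6 lay among the NB arrays (difference -0.09, SE 0.0719). Cyp2a5, which hydroxylates coumarin and nicotine, had 4.66, 4.00, 3.87 and 4.24 in NB livers, against 4.60, 5.11, 3.86 and 3.93 in NN livers. NN 4 stood highest and the difference was -0.18 (SE 0.292). Cyp2a4, a closely related steroid hydroxylase, followed it within 0.113 on each array and differed by -0.21 (SE 0.258).

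Cyp2e1, which oxidises ethanol and paracetamol, was at 8.01, 8.25, 8.13 and 8.08 on NB arrays and 8.04, 8.18, 8.02 and 8.12 on NN arrays (difference 0.03, SE 0.0804), and the 95% interval of the fold NB over NN was 0.899 to 1.16. Cyp2f2, known for activating naphthalene, was at 7.39, 7.10, 7.29 and 7.17 on NB arrays and 7.39, 7.40, 7.33 and 7.22 on NN arrays. NB 3 and NB 8 lay below all NN arrays, and the difference was -0.10 (SE 0.0880). Among 14 markers of the pericentral zone, where most P450 enzymes are made, 6 were above 0 and 8 below (median -0.02). Among 13 periportal markers 2 were above 0 and 11 below (median -0.17), and 0 of either list passed the test. At an unadjusted p under 0.05 by limma there were 3 periportal markers, lower in NB, and 0 pericentral ones. Of all features 0.956% were lower in NB at that level.

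The Cyp2j genes, epoxygenases of arachidonic acid on chromosome 4, were 6 of 7 below 0 with a median of only -0.02. Cyp2j5 was at 4.43, 4.43, 4.31 and 4.38 on NB arrays and 4.60, 4.46, 4.32 and 4.41 on NN arrays (difference -0.06, SE 0.0822). Cyp2j11 had the largest difference of the group, -0.11 (SE 0.0788), from 1.11, 1.35, 1.20 and 1.31 in NB livers and 1.32, 1.41, 1.36 and 1.31 in NN livers. In both genes the arrays of the genotypes interleaved. The Cyp2j12 and Cyp2j9 probes overlap by 50 bases with 6 mismatches, and their differences were -0.07 (SE 0.0793) and -0.01 (SE 0.0740).

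The single-gene subfamilies also showed no difference beyond the spread. Cyp2r1, a vitamin D hydroxylase, was at 1.63, 1.49, 1.54 and 1.61 on NB arrays and 1.74, 1.48, 1.57 and 1.59 on NN arrays (difference -0.03, SE 0.0811). Cyp2u1, a fatty acid hydroxylase, read -0.18, -0.15, 0.04 and -0.10 on NB arrays and -0.11, -0.00317, -0.15 and -0.13 on NN arrays. Its difference was 0.0006 (SE 0.0783), the nearest to 0 of all members.

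The remaining genes gave signals below the 75th percentile on every array. Cyp2g1, an enzyme of the olfactory mucosa, was at -1.66, -2.09, -1.65 and -1.71 on NB arrays and -1.64, -1.13, -1.59 and -2.03 on NN arrays (difference -0.18, SE 0.187). Cyp2s1, known from epithelia, was at -4.02, -3.48, -3.92 and -3.20 on NB arrays and -3.79, -3.59, -3.64 and -3.85 on NN arrays, a difference of 0.07 (SE 0.177) that was -0.036 with another background correction. Cyp2ab1, whose role is little described, was at -2.61, -2.51, -2.42 and -2.87 on NB arrays and -2.55, -2.72, -2.88 and -2.78 on NN arrays (difference 0.13, SE 0.116). In all 3 genes the arrays of the genotypes overlapped.

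Of the 9 members with more than 1 probe, 6 had differences of the same sign for both probes. In Cyp2c23, Cyp2c50 and Cyp2d26 the signs were opposite, with no value past 0.10 in size. Among 24 P450 genes outside the module, 10 were above 0 and 14 below with a median of -0.06, and 0 passed.

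**Figure D5:**
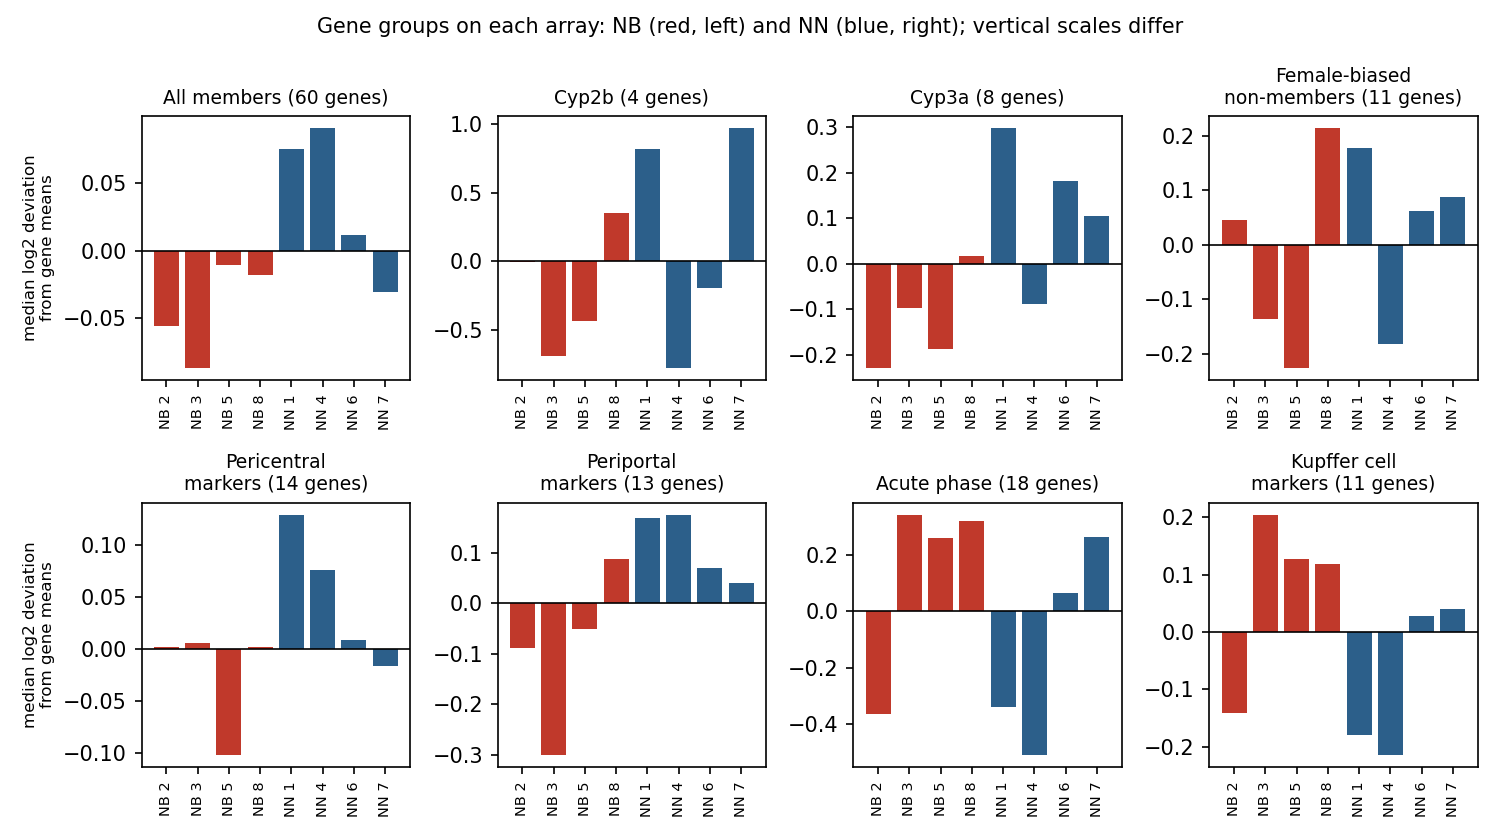
Median deviation from the gene means, in log2 units, of 8 gene groups on each array (NB red and left, NN blue and right, vertical scales differ). The median of the 60 members was between -0.09 and -0.01 on the NB arrays and between -0.03 and 0.09 on the NN arrays, and acute phase genes were lowest on NB 2, NN 1 and NN 4.

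Acute phase genes, which hepatocytes make in inflammation, and Kupffer cell markers, from liver macrophages, varied over the same arrays. Of 18 acute phase genes 16 were above 0 in NB and 2 below (median 0.28), and of 11 Kupffer markers 10 were above 0 and 1 below (median 0.17), and 0 of either list passed the test. The Kupffer markers summed to between 74.5 and 102.9 times the 75th percentile on NB arrays and between 71.1 and 94.4 times on NN arrays. Of the markers of other cells, 8 of 10 for monocytes and macrophages (median 0.14) and 11 of 13 for stellate cells and matrix (median 0.09) were above 0. Those of lymphocytes, endothelium, bile ducts, erythroid cells and adipocytes had medians between -0.02 and 0.02, and 0 genes of these lists passed. Array medians of the acute phase genes were -0.36, 0.34, 0.26 and 0.32 on NB arrays and -0.34, -0.51, 0.07 and 0.26 on NN arrays. Their part in the P450 values was not tested.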

How the data were processed

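Cy3-labelled liver RNA, 4 samples from NB and 4 from NN mice, was read on a custom 1-colour Agilent array. Per the file headers, Agilent Feature Extraction 11.5.1.1 gave a background-subtracted intensity for each spot with no scaling between arrays, whereas the submitters' processing notes name version 9.1. The authors' deposited table of linear intensity values served as an alternative. Per the file headers the build is mm9, but the probes carry no position. All arrays share 1 slide and 1 scan date.

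Spots marked as outliers (248 to 621 per array) were left out, spots of a probe were averaged, and log2 intensity was set relative to each array's 75th percentile. From these deposited intensities log2 values were computed here. Probes well above background on at least 4 arrays were kept, and each gene took its brightest probe. Probe accessions were named through RefSeq (GRCm38.p6), which named 31064 of 60273 probes. The test was the two-sided moderated test of limma 3.58.1 under R 4.3.3, for NB minus NN, with eBayes after lmFit and Benjamini-Hochberg adjustment over 42982 features (threshold 0.05). In simulated data of this size, 20% of features changed by 0.5 log2 units were called. The shares were 78% for changes of 1 and 98% for changes of 2. At each size up to 3 log2 units 50 features were changed, and 4 unchanged features were called. Planted changes ease the adjusted threshold, so these shares may be too high for the real data. The number of arrays limits the precision.

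Values on every array are given for members past the threshold or without overlap, for the member with the smallest p and the member with the highest mean level of each subfamily, for Por and the receptors, and for others named after their values were seen. Of the other gene lists, the 2 members with the smallest p could be named. The members and gene lists were chosen with earlier results of these data known. Alternatives covered background correction, scaling, filters, probe choice, test options, slide position and leaving out each array.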

Additional observations from a re-analysis of the deposited data

Results flagged for a closer look

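Of 58 sets of 4 arrays screened, 3 (5.17%) held an array whose gap to the nearest of the others passed Dixon's critical value at 95%, where chance gives about 5%. Cyp2g1 was at -2.09 on NB 3, against -1.71 to -1.65 on the other NB arrays. Cyp3a41b was at 5.94 on NN 4, against 6.32 to 6.37 on the other NN arrays. The median deviation of the acute phase genes was -0.36 on NB 2, against 0.26 to 0.34 on the other NB arrays.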

How the results depend on the processing

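Over 14 alternative settings and 8 fits that each left out 1 array, 0 members passed the threshold. Members below 0 numbered 45 to 48 of 60 under the settings that test 1 value a gene and 43 to 50 without single arrays, and 52 of 69 member probes were below 0 when tested separately. The median ran from -0.09 to -0.05 under the settings and from -0.11 to -0.05 without single arrays. Members at an unadjusted p under 0.05 numbered 2 to 6 under the settings and 1 to 5 without single arrays. Features over the whole array at that level numbered 553 to 1228 under the settings and 625 to 1454 without single arrays. The 6 arose with the trend and robust options of eBayes, where 553 of 42982 features were at that level. Without NN 4 there were 5 members, beside 625 of 42916 features. Features past the threshold over the whole array numbered 2 to 5, against 3 as reported, the 5 arising when the probes of a gene were averaged, and 2 to 3 without single arrays. Cyp2s1 turned to -0.036 with normexp background correction, the only change of sign among 288 values of named members under the settings. Of 192 values without 1 array, 10 changed sign, in 6 genes. Their lowest and highest values were -0.00298 and 0.33 for Cyp1a2, -0.015 and 0.064 for Cyp2e1, -0.064 and 0.023 for Cyp2r1, -0.087 and 0.19 for Cyp2s1, -0.044 and 0.032 for Cyp2u1, and -0.034 and 0.32 for Por. The cause was not tested. No paired analysis was possible because the 2 genotypes share none of the sample numbers in the labels. Slide columns, which each hold 1 array of either genotype, were instead fitted as a block. In that fit 0 members passed, and 3 (Cyp3a44, Cyp3a16 and Cyp2b19) had an unadjusted p under 0.05, where 2.86% of all features did. With 4 arrays in each genotype, 20% of features changed by 0.5 log2 units were called in simulated data, and smaller changes were not simulated.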
